A study of Homo sapiens with 6 samples.

Results

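The 10 genes described here encode proteins that supply membrane and lipid to the growing autophagosome, or that recruit or regulate such machinery. They are ATG2A, ATG2B, ATG9A, WIPI1, WIPI2, WDR45, WDR45B, VMP1, TMEM41B and AMBRA1. Members were taken by gene name from a deposited table of 60843 genes, where each name matched 1 protein-coding row, and all 10 entered the test together with the rest of 14791 tested genes. RNA of the human liposarcoma line SW872-S was sequenced in 3 libraries labelled NC (genotype TP53INP2 NC), taken as the controls, and 3 of the TP53INP2_OE group (genotype TP53INP2 OE), in which a plasmid overexpresses TP53INP2. All 6 libraries carry the same cell line, tissue and cell type labels, and the growth medium was DMEM with 10% serum for both groups. The design text mentions cells from different sources without naming them, and the control plasmid, the promoter of the plasmid and the time after transfection were not stated. Whether replicates were grown apart is not stated either, so p-values measure only the spread among the libraries, which may be technical.

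Autophagosomes form from a cup-shaped membrane, the phagophore, that grows beside the endoplasmic reticulum. ATG2A and ATG2B are rod-shaped proteins that carry phospholipids from the endoplasmic reticulum to the phagophore. Scramblases, which move lipids between the leaflets of a membrane, sit at both ends of this route, with VMP1 and TMEM41B on the endoplasmic reticulum side and ATG9A, which arrives on small Golgi-derived vesicles, on the phagophore side. The 4 proteins of the WIPI family (WIPI1, WIPI2, WDR45 and WDR45B) are beta-propellers that bind phosphatidylinositol 3-phosphate (PI3P) on the phagophore and bring ATG2 or the conjugation machinery to it. AMBRA1 is a scaffold that acts at the start of autophagy through the ULK and Beclin 1 complexes and is also a substrate receptor of a cullin ubiquitin ligase. TP53INP2 protein is known to bind VMP1 and the LC3 family, which places it near this machinery at the protein level.

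The libraries held between 16038062 and 17607612 reads assigned to genes. TP53INP2 itself measured 10.6, 9.45 and 9.67 FPKM in NC replicates 1 to 3 and 18.9, 23.4 and 27.1 FPKM in TP53INP2_OE replicates 1 to 3. FPKM are fragments scaled by gene length and library size but not by GC content, so levels of different genes can be compared only roughly. The groups did not overlap, and the log2 fold change was 1.13 (SE 0.12; limma, adjusted p = 0.00282), with plasmid and chromosomal reads summed. As for the label of a liposarcoma cell, 4 of 6 mesenchymal markers reached a mean of 0.5 FPKM. Among the 6, VIM was at 719 to 782 FPKM over the 6 libraries, while COL1A2 had at most 3 reads. The liposarcoma amplicon genes MDM2, CDK4 and HMGA2 averaged 3.60, 49.1 and 11.8 FPKM. Of 5 mature adipocyte genes 1 reached a mean of 0.5 FPKM, LPL at 11.3 to 13.6 FPKM, while ADIPOQ and FABP4 had 0 reads. Of 4 immune and 3 epithelial markers none reached a mean of 0.5 FPKM. All 3 endothelial markers did, with PECAM1 averaging 3.8 and VWF 0.76 FPKM. CDH5, a cadherin of endothelial cells, was at 30.1 to 35.0 FPKM in NC and 27.3 to 28.6 FPKM in TP53INP2_OE. The part of these endothelial markers in the results was not tested.

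In the deposited values 3 of the 10 genes rose in TP53INP2_OE and none fell, while with GC content and length fitted out only ATG9A rose. The 3 were VMP1, TMEM41B and ATG2B, so both scramblases of the endoplasmic reticulum and 1 of the paralogous lipid carriers were higher, by between 25.6% and 30.0% of the NC mean. Among all tested genes 16.4% rose and 18.6% fell (limma on log2(FPKM + 1), Benjamini-Hochberg adjusted p below 0.05), so the count stands against a background in which about as many genes fell as rose. The median log2 fold change of the 10 was 0.07, against 0.003 over all tested genes. At an unadjusted p below 0.05, 2 of the 10 were lower, ATG2A and WIPI2. With limma's voom on reads worked back from the FPKM values 2 genes were called lower, ATG2A and AMBRA1. In RNA from whole cultures a change in every cell and a change in some of them cannot be told apart.

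The start regions of the 3 genes that rose, and that of ATG2A, the paralog of ATG2B that did not pass, are printed so that genes that moved together can be compared (RefSeq, GRCh38.p14, 250 bases before to 50 after the start, each on the gene's own strand). Capitals mark the GC box GGGCGG and the ETS-type letters CCGGAAG on either strand.

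VMP1 (chr17:59707404-59707703, plus strand): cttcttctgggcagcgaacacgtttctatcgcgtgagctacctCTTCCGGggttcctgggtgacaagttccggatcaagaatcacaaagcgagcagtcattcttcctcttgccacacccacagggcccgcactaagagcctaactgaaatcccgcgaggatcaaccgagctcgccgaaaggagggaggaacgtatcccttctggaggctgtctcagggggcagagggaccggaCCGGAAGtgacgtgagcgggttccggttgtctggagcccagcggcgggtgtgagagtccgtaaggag

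TMEM41B (chr11:9314544-9314843, minus strand): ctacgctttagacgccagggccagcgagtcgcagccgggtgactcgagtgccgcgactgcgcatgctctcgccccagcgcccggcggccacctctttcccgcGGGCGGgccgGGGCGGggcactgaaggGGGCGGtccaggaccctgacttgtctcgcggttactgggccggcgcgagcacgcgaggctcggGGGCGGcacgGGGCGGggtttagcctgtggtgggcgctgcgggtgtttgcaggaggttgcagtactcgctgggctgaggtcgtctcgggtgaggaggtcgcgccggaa

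ATG2B (chr14:96363292-96363591, minus strand): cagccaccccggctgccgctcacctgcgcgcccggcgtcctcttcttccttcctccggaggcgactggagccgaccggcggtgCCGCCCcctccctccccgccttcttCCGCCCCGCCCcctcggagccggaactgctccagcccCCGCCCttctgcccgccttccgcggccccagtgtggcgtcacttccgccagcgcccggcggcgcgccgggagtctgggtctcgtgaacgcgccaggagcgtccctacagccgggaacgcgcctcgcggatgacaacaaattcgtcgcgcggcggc

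ATG2A (chr11:64917160-64917459, minus strand): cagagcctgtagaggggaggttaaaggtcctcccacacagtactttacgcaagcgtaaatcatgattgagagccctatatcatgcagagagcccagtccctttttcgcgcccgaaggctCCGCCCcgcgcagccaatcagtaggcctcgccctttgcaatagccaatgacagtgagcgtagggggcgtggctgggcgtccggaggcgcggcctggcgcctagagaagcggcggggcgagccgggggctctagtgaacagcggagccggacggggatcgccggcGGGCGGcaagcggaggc

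Windows were found for 9 of the 10 genes, with WDR45B the one without, and 3 genes had more than 1 window. GGGCGG occurred 5 times in the TMEM41B window, 4 times in that of ATG2B and 2 times in that of ATG2A, and 0 times in that of VMP1, while 44.95% of 35116 RefSeq windows of this length held it at least once. The VMP1 window held CCGGAAG 2 times, which 10.26% of all windows held. The letters CACGTG, the core of the CLEAR element of autophagy and lysosome genes, were in none of the 12 windows of these genes and in 7.26% of all windows. TGACGTCA, the cyclic AMP response element, was in none of the 12 either, against 1.85% of all windows. CCAAT (34.61% of all windows) was in none of the 3 windows of genes that rose and 2 times in that of ATG2A, and TATAAA (11.53%) was in none of the 4 printed. No motif searched was present in all 3 windows of the genes that rose, and such matches describe letters, not bound sites.

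**Figure D1:**
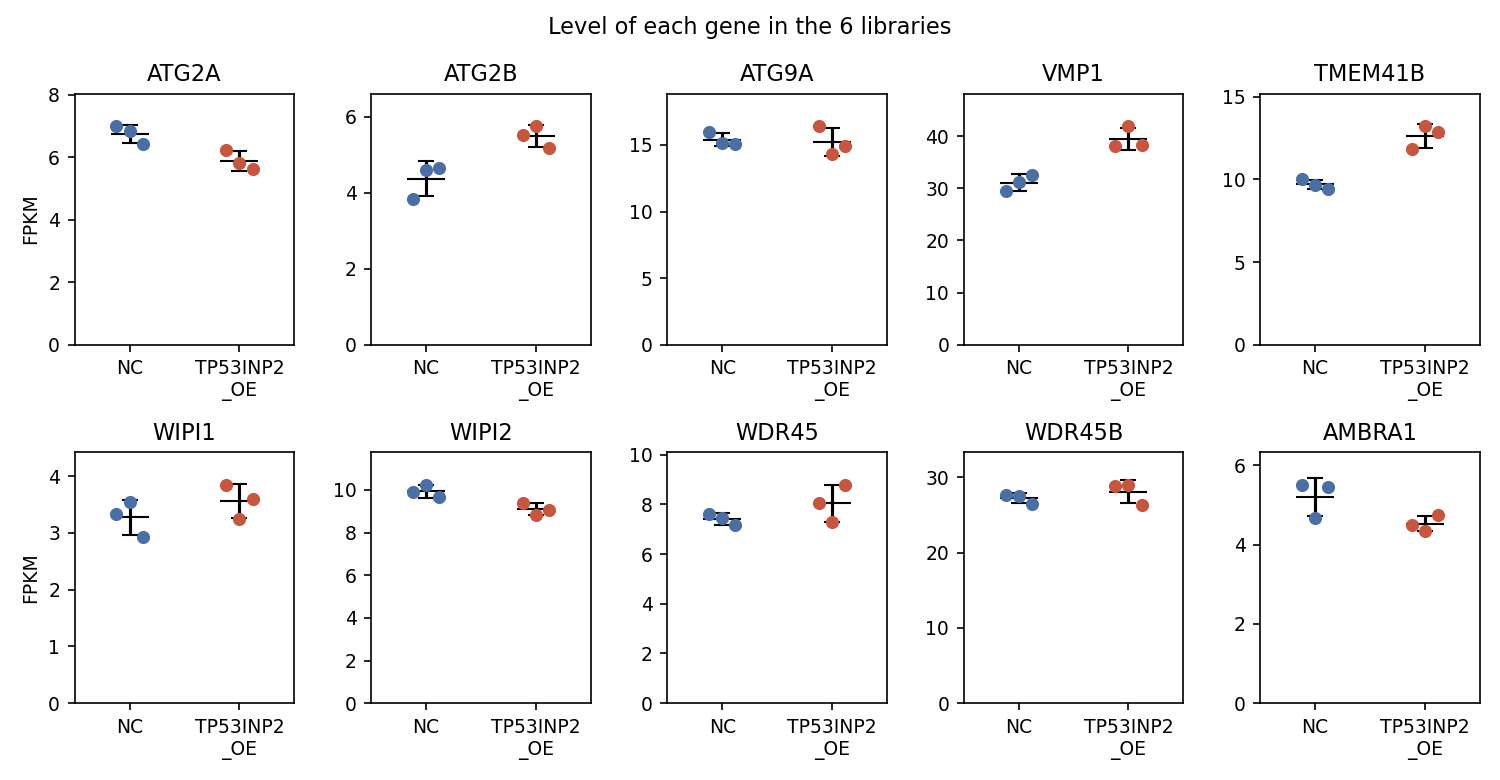
Level in FPKM (vertical axes from 0) of each of the 10 genes in the 3 NC (blue) and 3 TP53INP2_OE (red) libraries; points are libraries in the order of their replicate numbers, bars are the mean and SD. VMP1, TMEM41B and ATG2B lie higher in all 3 TP53INP2_OE libraries, ATG2A and WIPI2 lie lower in all 3, and the groups overlap for the other 5.

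VMP1, the most abundant of the 10, encodes a multispanning membrane protein needed for phagophores to part from the endoplasmic reticulum. It measured 29.5, 31.3 and 32.6 FPKM in NC replicates 1 to 3 and 38.1, 41.9 and 38.3 FPKM in TP53INP2_OE replicates 1 to 3, the order used for every gene. The lowest TP53INP2_OE library lay above the highest NC library, and the step between them was larger than the spread within either group. This was a log2 fold change of 0.33 (SE 0.05; limma, adjusted p = 0.00581; between 0.0117 and 0.0250 when single libraries were left out). The gene lies on the plus strand of chromosome 17 at positions 59707192 to 59842255 (GRCh38), and each value rests on 3291 to 4935 reads. It overlaps PTRH2 on the opposite strand by 435 bases, a gene at 5.14 ± 0.24 and 5.58 ± 0.23 FPKM that did not pass (adjusted p = 0.189).

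The microRNA gene MIR21 lies inside the VMP1 locus on the same strand, and its mature product is shown because reads of the host locus and of the precursor can be counted together. The seed, bases 2 to 8, is in capitals (RefSeq, GRCh38.p14, chr17:59841273-59841294).

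hsa-miR-21-5p: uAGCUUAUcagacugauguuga

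The 72-base MIR21 row was listed with 0 reads in each of the 6 libraries. The values of VMP1 are reads assigned to the host gene, and whether some of them come from the precursor was not tested. Mature miR-21 was not analysed here.

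TMEM41B encodes the second scramblase of the endoplasmic reticulum, a partner of VMP1 with the same type of fold. Its levels were 10.0, 9.68 and 9.45 FPKM in NC and 11.8, 13.2 and 12.8 FPKM in TP53INP2_OE. Each TP53INP2_OE library was above each NC library, and the log2 fold change of 0.35 (SE 0.05) was the largest of the 10 (limma, adjusted p = 0.00452; at most 0.0209 when single libraries were left out). The gene lies on the minus strand of chromosome 11 at positions 9280654 to 9314636. VMP1 rose to 1.27 times and TMEM41B to 1.30 times its NC mean, and their ratio overlapped between the groups. The within-library log2 ratio of TMEM41B to VMP1 was -1.68 ± 0.12 in NC against -1.64 ± 0.06 in TP53INP2_OE (mean ± SD, n = 3; exact two-sided permutation test, p = 0.7). Their summed level was 40.8 ± 1.30 FPKM in NC and 52.1 ± 2.75 FPKM in TP53INP2_OE (exact two-sided permutation test, p = 0.1, the lower limit with 3 libraries a group). Since each gene alone was higher in every TP53INP2_OE library, the sums could not overlap. The test of the sum therefore adds nothing to the single-gene results. Of their relatives in the same fold family, TMEM41A went from 3.59 ± 0.37 to 4.14 ± 0.25 FPKM and TMEM64 from 4.10 ± 0.29 to 4.83 ± 0.57 FPKM, and neither passed (limma, adjusted p = 0.135 and 0.132).

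The ATG2 paralogs moved in opposite directions in the deposited values, though not with GC content and length fitted out, where both were above 0 and neither passed. ATG2B, on the minus strand of chromosome 14 at positions 96279195 to 96363341, measured 3.83, 4.60 and 4.66 FPKM in NC and 5.53, 5.75 and 5.17 FPKM in TP53INP2_OE. Its groups did not overlap, and its log2 fold change was 0.28 (SE 0.08; limma, adjusted p = 0.0311). That call was the least firm of the 3, since it was lost without NC replicate 1 (adjusted p = 0.0697), without NC replicate 2 (0.0555), without TP53INP2_OE replicate 1 (0.0752) and without TP53INP2_OE replicate 2 (0.0931).

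ATG2A, on the minus strand of chromosome 11 at positions 64894546 to 64917211, measured 6.99, 6.83 and 6.41 FPKM in NC and 6.24, 5.81 and 5.60 FPKM in TP53INP2_OE. All TP53INP2_OE libraries were below all NC libraries, yet the log2 fold change of -0.17 (95% interval -0.30 to -0.04) did not pass (limma, adjusted p = 0.0533). It passed without TP53INP2_OE replicate 1 (0.0406), when only protein-coding genes (0.0361) or only genes averaging 5 FPKM or more (0.0373) were tested and with voom (0.0222). The summed ATG2 level was 11.1 ± 0.31 FPKM in NC and 11.4 ± 0.52 FPKM in TP53INP2_OE, which overlapped (exact two-sided permutation test, p = 0.5). Within that sum ATG2B took 39.3 ± 3.45% in NC and 48.2 ± 1.39% in TP53INP2_OE. The log2 ratio of ATG2B to ATG2A was -0.87, -0.57 and -0.46 in NC replicates 1 to 3, and in TP53INP2_OE -0.18, -0.02 and -0.12. These did not overlap (exact two-sided permutation test, p = 0.1, the smallest possible). With ATG2B higher and ATG2A lower in every TP53INP2_OE library, that outcome was fixed and adds nothing to the single-gene results. On the FPKM scale ATG2A remained the higher paralog in each library, by a narrower margin in TP53INP2_OE. ATG2B had 891 to 1407 reads per library at a gene length of 14256 bases, and ATG2A 712 to 947 reads at 7833 bases.

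ATG9A, the scramblase on the phagophore side, showed no such difference in the deposited values. It measured 15.9, 15.2 and 15.1 FPKM in NC and 16.4, 14.3 and 14.9 FPKM in TP53INP2_OE, and the groups overlapped fully. The log2 fold change was -0.02 with a 95% interval from -0.15 to 0.12 (limma, adjusted p = 0.847). It lies on the minus strand of chromosome 2 at positions 219219380 to 219229717. Its paralog ATG9B was below the expression filter (0.43 ± 0.08 FPKM in NC, 0.37 ± 0.04 in TP53INP2_OE).

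None of the 4 WIPI family genes passed, in the deposited values or with GC content and length fitted out, except WDR45 in a form of the latter fit with equal library means (0.24, adjusted p = 0.0414). WIPI2, which recruits ATG16L1 to PI3P, measured 9.92, 10.2 and 9.65 FPKM in NC and 9.39, 8.82 and 9.06 FPKM in TP53INP2_OE, with no overlap and a log2 fold change of -0.12 (95% interval -0.22 to -0.01; limma, adjusted p = 0.0799). With GC content and length fitted out the log2 fold change of WIPI2 was -0.015 (95% interval -0.10 to 0.07; limma, adjusted p = 0.823). WDR45, also called WIPI4 and a direct partner of ATG2, measured 7.63, 7.44 and 7.15 FPKM in NC and 8.05, 7.30 and 8.79 FPKM in TP53INP2_OE. Its groups overlapped because TP53INP2_OE replicate 2 lay within the NC range, and the interval of its log2 fold change ran from -0.06 to 0.26 (adjusted p = 0.282).

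WDR45B, also called WIPI3, was the most abundant of the family, with NC libraries between 26.4 and 27.7 FPKM and TP53INP2_OE libraries between 26.3 and 29.0 FPKM (adjusted p = 0.534). WIPI1, the least abundant of the 10, had NC libraries between 2.94 and 3.55 FPKM and TP53INP2_OE libraries between 3.25 and 3.85 FPKM (adjusted p = 0.389). With 178 to 214 reads per library, counting alone gives WIPI1 values an error of 7.14%, close to the 9.56% and 8.43% by which its replicates varied. The intervals of the log2 fold change, -0.07 to 0.16 for WDR45B and -0.09 to 0.29 for WIPI1, contain a difference of the size seen for ATG2B (0.28) only in the case of WIPI1.

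The family total was 47.8 ± 1.44 FPKM in NC and 48.8 ± 1.25 FPKM in TP53INP2_OE (exact two-sided permutation test, p = 0.6). WDR45B made up 56.9 ± 0.41% of it in NC and 57.5 ± 2.44% in TP53INP2_OE. The share of WIPI2 was 20.8 ± 0.31% in NC and 18.6 ± 0.38% in TP53INP2_OE, without overlap (exact two-sided permutation test, p = 0.1, the smallest possible). The log2 ratio of WIPI2 to WIPI1 was 1.60 ± 0.10 in NC and 1.35 ± 0.08 in TP53INP2_OE, again without overlap (exact permutation p = 0.1, and at most 0.2 with single libraries left out). That of WDR45B to WDR45 overlapped between the groups, at 1.88 ± 0.015 and 1.80 ± 0.21 (exact permutation p = 0.7). WDR45B shares its locus on chromosome 17 (positions 82614562 to 82648553) with FOXK2, which overlaps it by 30101 bases on the opposite strand. FOXK2, a forkhead transcription factor, fell (9.53 ± 0.39 against 8.13 ± 0.39 FPKM, log2 fold change -0.21, limma, adjusted p = 0.022), though not with GC content and length fitted out (-0.07, adjusted p = 0.340), and no source used here says whether counting used strand. The pseudogene rows WDR45BP1 and WDR45P1 held at most 1 read.

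**Figure D2:**
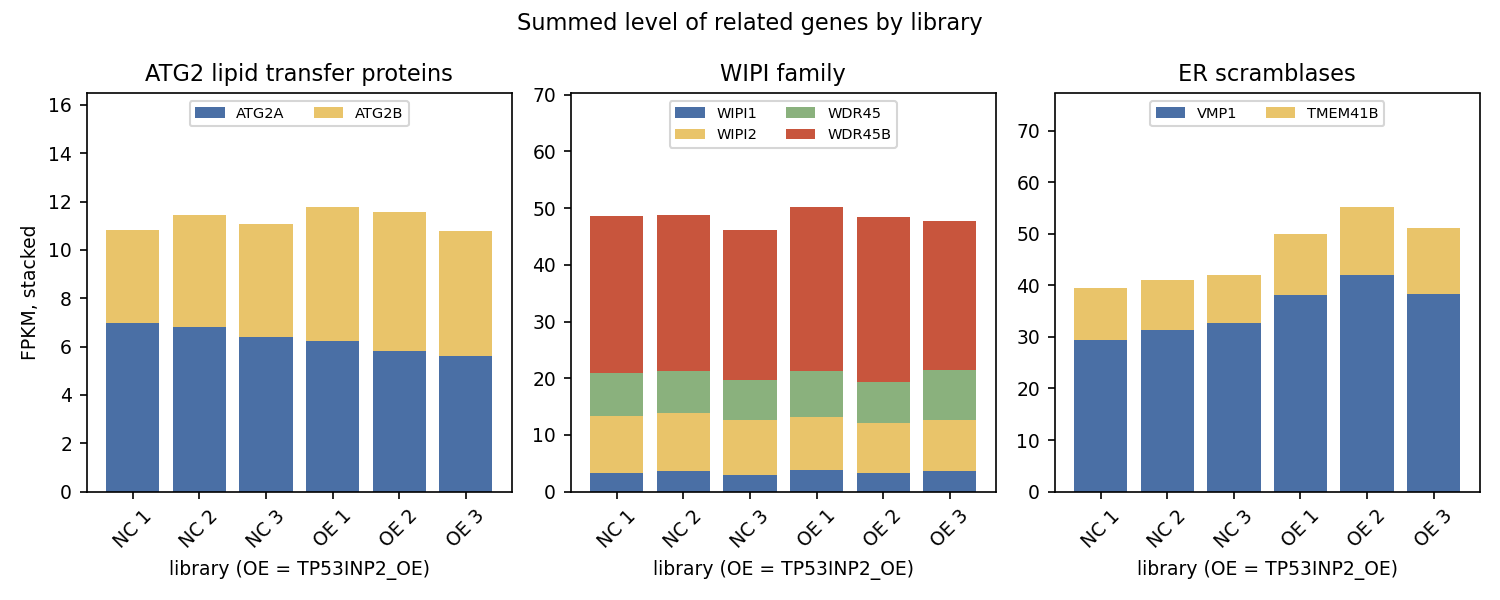
FPKM (vertical axis from 0, stacked) of the ATG2 paralogs, the 4 WIPI family genes and the endoplasmic reticulum scramblases in each of the 6 libraries. The ATG2 and WIPI totals overlap between groups, while the VMP1 and TMEM41B total is 39.5 to 42.1 FPKM in NC and 49.9 to 55.1 FPKM in TP53INP2_OE.

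AMBRA1, on the minus strand of chromosome 11 at positions 46396414 to 46594125, measured 5.51, 4.66 and 5.44 FPKM in NC and 4.50, 4.35 and 4.74 FPKM in TP53INP2_OE. NC replicate 2 lay inside the TP53INP2_OE range and the other NC libraries above it. The log2 fold change was -0.16 with a 95% interval from -0.33 to 0.001, which did not pass (limma, adjusted p = 0.113). Without NC replicate 2 it passed (log2 fold change -0.23, adjusted p = 0.0442), as it did with voom (-0.19, adjusted p = 0.0488). Each other single omission left AMBRA1 short of the threshold (limma, adjusted p between 0.129 and 0.287). Its difference was close to none once corrected for GC and length, at -0.03 (95% interval -0.19 to 0.14, limma, adjusted p = 0.832). The same-strand ribosomal protein S10 pseudogene AC024293.1 lies within AMBRA1 and was at 30.5 ± 3.57 and 33.1 ± 3.02 FPKM (adjusted p = 0.377). In all, 13 genes that overlapped one of the 10, MIR21 among them, were below the expression filter with at most 19 reads in a library, and MIR635 inside WIPI1 had 1 to 9 reads.

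On the FPKM scale the order of levels in NC was VMP1, WDR45B, ATG9A, WIPI2, TMEM41B, WDR45, ATG2A, AMBRA1, ATG2B and WIPI1. Libraries of neighbours in this order overlapped for WIPI2 with TMEM41B and for AMBRA1 with ATG2B. In TP53INP2_OE TMEM41B stood above WIPI2 and ATG2B above AMBRA1, each without overlap, and ATG2A and ATG2B overlapped. VMP1 lay above 88.0% of tested protein-coding genes in NC and 91.5% in TP53INP2_OE, and WIPI1 above 27.5% and 30.1%. Over both groups, libraries were fully apart for 5 of the 10 genes, 3 higher and 2 lower, against 50.8% of all tested genes in either direction.

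The differences of these genes followed the GC content of their transcripts, as those of the whole table did. Among the 10, GC content of the longest transcript and log2 fold change had a Spearman's rho of -0.867 (10 genes, all from the same 6 libraries), and over 14548 tested genes it was -0.677. VMP1 (38.6% GC), TMEM41B (40.0%) and ATG2B (44.2%) have the lowest GC content of the 10 and ATG2A (64.0%) the highest. Tested genes were split into 10 classes of like size by GC content. In the class that holds VMP1 and TMEM41B, 42.5% rose and 1.1% fell, with a median log2 fold change of 0.19. In the class with ATG2A 0.2% rose and 58.5% fell, with a median of -0.31. All 10 genes had a log2 fold change above the median of their own class, and 8 lay above its upper quartile, the exceptions being WIPI2 and AMBRA1. This is a description of these libraries, without a test.

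**Figure D3:**
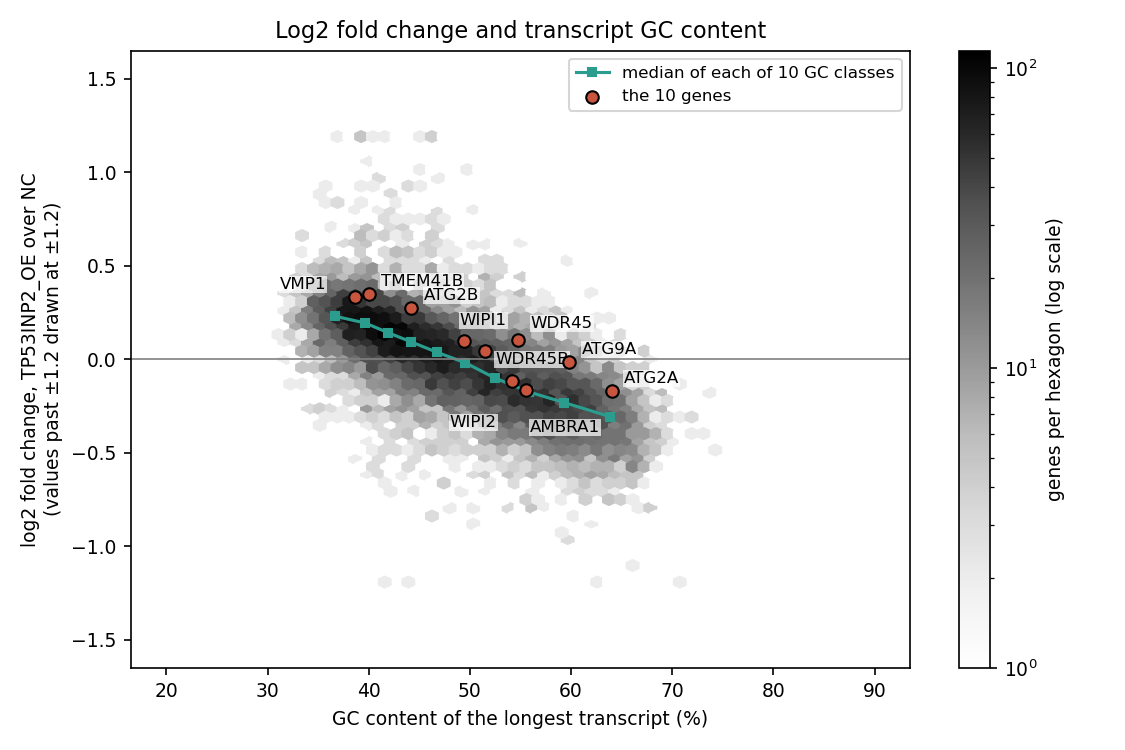
Log2 fold change (vertical axis) against GC content of the longest transcript (horizontal axis, percent) for 14548 tested genes (grey hexagons, darker with more genes on a log scale), with the median of each of 10 classes of genes by GC content (green) and the 10 genes (red). Each red point lies above the median of its class, from VMP1 at 38.6% GC to ATG2A at 64.0%.

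When a trend on GC content and gene length was fitted out of each library, the picture for these genes changed. ATG9A rose, with a corrected log2 fold change of 0.21 (SE 0.04; limma, adjusted p = 0.0230), and none of the 10 fell, against 3.99% of genes higher and 6.90% lower in that fit. WDR45 came close, at 0.23 (95% interval 0.09 to 0.36, adjusted p = 0.0512). VMP1 (0.12, adjusted p = 0.0970), TMEM41B (0.16, 0.0665) and ATG2B (0.16, 0.204) no longer passed, although the intervals of VMP1 (0.03 to 0.21) and TMEM41B (0.06 to 0.26) stayed above 0. ATG2A turned from -0.17 to 0.11 (adjusted p = 0.215). In all, 8 of the 10 corrected values were above 0, with a median of 0.11 against -0.01 over all genes. The difference between groups in the log2 ratio of ATG2B to ATG2A went from 0.53 to 0.05 (exact permutation p = 0.9). The ATG9A call was lost without NC replicate 1 (0.0751), without NC replicate 2 (0.0680), without NC replicate 3 (0.0653) and without TP53INP2_OE replicate 2 (0.0557), at log2 fold changes between 0.18 and 0.23 over all 6 omissions. The GC trend runs between the groups, so a difference in GC-linked recovery between libraries and a difference in expression cannot be told apart by it.

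**Figure D4:**
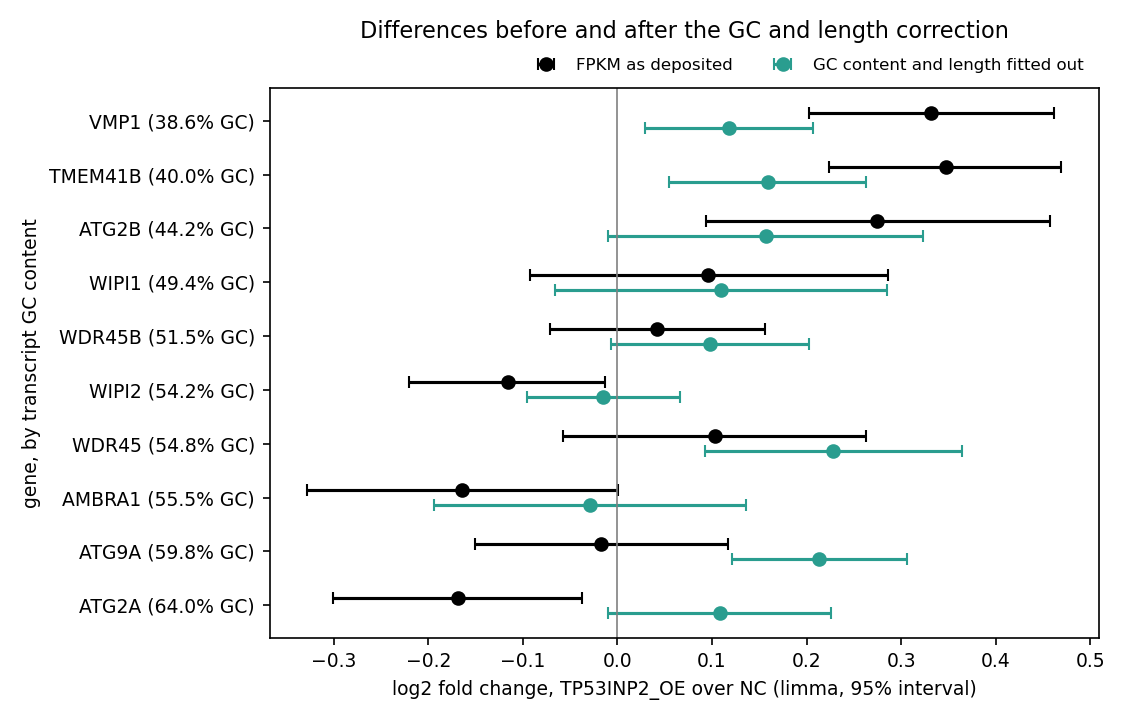
Log2 fold change, TP53INP2_OE over NC, with its 95% interval (horizontal axis) for the 10 genes in order of transcript GC content (vertical axis), from the deposited FPKM (black) and after GC content and length were fitted out (green). The black points run from 0.33 for VMP1 at the top to -0.17 for ATG2A at the bottom, and the green points lie between -0.03 and 0.23.

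Other genes of the route were counted in lists around the 10, and changes given without FPKM are log2 fold changes with a limma adjusted p of at most 0.0217. Each count stands beside the 16.4% of all tested genes that rose and the 18.6% that fell. With GC content and length fitted out these shares were 3.99% and 6.90%. Of 23 tested genes of ATG9 vesicle traffic, 7 rose and 4 fell, with a median log2 fold change of 0.01. The sorting nexin SNX4, which retrieves ATG9A-bearing membrane, rose, at 11.1 ± 0.58 in NC against 14.2 ± 0.63 FPKM (log2 fold change 0.33, adjusted p = 0.00547). The AP-4 adaptor, which exports ATG9A from the Golgi network, had its epsilon subunit gene AP4E1 higher by 0.32 (adjusted p = 0.0153) and its mu subunit gene AP4M1 lower (-0.31, adjusted p = 0.0214), and TRAPPC8, a vesicle tethering subunit, rose by 0.30. AP4E1 has a GC content of 39.0% and AP4M1 one of 58.8%, and none of these 4 passed with GC content and length fitted out, where 2 list genes rose and 2 fell. Without NC replicate 1 the number that rose was 3, AP4E1 did not pass (0.0551), and AP4M1 did not pass without any one of NC replicate 2 (0.0576), NC replicate 3 (0.0655), TP53INP2_OE replicate 1 (0.0565) and TP53INP2_OE replicate 2 (0.0575).

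Of 14 other lipid bridges, DedA relatives and their membrane anchors, 5 rose and 1 fell (median 0.16). Their median GC content was 42.7%, against 48.0% over all tested genes. UHRF1BP1L, a bridge-like lipid transfer protein, rose, at 5.90 ± 0.44 in NC against 8.38 ± 0.63 FPKM (log2 fold change 0.44, adjusted p = 0.00544). The ATG2 relatives VPS13A and VPS13C rose by 0.35 and 0.28. TOMM40, the mitochondrial import channel, to which ATG2A has been shown to bind, fell, at 44.6 ± 0.98 in NC against 27.5 ± 3.13 FPKM (log2 fold change -0.69, adjusted p = 0.00290), and it fell after the GC and length correction too (-0.48, adjusted p = 0.00945). In that fit UHRF1BP1L (0.23, adjusted p = 0.0834), VPS13A (0.11, 0.351) and VPS13C (0.04, 0.667) did not pass. Of the whole list 1 gene rose and 2 fell there, while 9 rose with voom. Without NC replicate 1, or without NC replicate 2, 3 rose, and VPS13C did not pass (0.0707 and 0.0739).

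Of 18 tested genes that make, read or remove PI3P around the WIPI proteins, 5 rose and 1 fell (median 0.07). PIK3C3, the lipid kinase VPS34 that makes PI3P for the phagophore, rose, at 3.92 ± 0.18 in NC against 5.08 ± 0.50 FPKM (log2 fold change 0.30, adjusted p = 0.0181), but not without NC replicate 1 (0.0593) or NC replicate 3 (0.0566). PIK3C2A, a class II kinase, rose by 0.35 and the phosphatase gene MTMR6 by 0.32. MTMR14, a PI3P phosphatase that opposes WIPI recruitment, fell, at 5.04 ± 0.18 in NC against 4.07 ± 0.07 FPKM (log2 fold change -0.25, adjusted p = 0.00901), and after correction by 0.21 (adjusted p = 0.0340). With GC content and length fitted out none of this list rose.

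Of 19 tested phospholipid synthesis genes, 3 rose (6 with voom) and 6 fell (median -0.04). ACSL3, an acyl-CoA synthetase of the endoplasmic reticulum and lipid droplets, rose, at 29.8 ± 0.94 in NC against 39.2 ± 2.06 FPKM (log2 fold change 0.39, adjusted p = 0.00316), and it was the 1 gene of the list that passed after correction (0.16, adjusted p = 0.0333). PCYT2, which makes CDP-ethanolamine, fell by 0.43, and AGPAT2 and AGPAT1, which make phosphatidic acid, fell by 0.39 and 0.34. AGPAT1 did not pass without TP53INP2_OE replicate 2 (0.0569).

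Of 15 tested partners and substrates of AMBRA1, 6 rose and 3 fell (median -0.001). CUL4B, a cullin of the ligase that AMBRA1 serves, rose, at 9.70 ± 0.46 in NC against 15.7 ± 0.89 FPKM (log2 fold change 0.64, adjusted p = 0.00239), and after correction by 0.41 (adjusted p = 0.00706), the 1 gene of the list that passed there. RNF2, a ubiquitin ligase that targets AMBRA1, rose by 0.35 and the phosphatase subunit gene PPP2CA by 0.27. CCND3, a D-type cyclin that AMBRA1 directs to degradation, fell, at 17.6 ± 0.32 in NC against 14.6 ± 1.60 FPKM (log2 fold change -0.26, adjusted p = 0.0309). It did not pass when NC replicate 1, 2 or 3 or TP53INP2_OE replicate 2 or 3 was left out (between 0.0681 and 0.0934), and the number that fell was then between 0 and 1, as it was 1 with TPM, quantile normalization or the replicate block. Of the 5 ULK complex genes, RB1CC1, which encodes the FIP200 scaffold, rose by 0.33 (adjusted p = 0.00327) and ATG101, another subunit gene, fell (log2 fold change -0.43, adjusted p = 0.0151), though not without NC replicate 2 (0.0553). Neither passed with GC content and length fitted out.

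Over these lists, each gene counted once, 27 of 92 tested genes rose and 16 fell, with a median log2 fold change of 0.06. Over all tested genes 16.4% rose and 18.6% fell. The median GC content was 46.9% for the list genes and 48.0% for all tested genes. After correction 5 of the 92 rose and 5 fell, against 3.99% and 6.90% of all genes in that fit. The number that fell was 9 without NC replicate 2 and 10 without TP53INP2_OE replicate 2. Across the 6 libraries, the genes most like TMEM41B among 6903 protein-coding genes of at least 5 FPKM were NCOA4 (Pearson's r 0.9993), PPP1R12A (0.9983) and MAN2A1 (0.9982), a ferritin-targeting autophagy receptor, a myosin phosphatase subunit and a Golgi mannosidase. As 693 genes had an r of at least 0.95 over the same 6 values, this likeness sets no gene apart.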

How the data were processed

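RNA sequencing libraries of 3 NC and 3 TP53INP2_OE samples of SW872-S cells were grouped by sample title. Per the labels' protocols, Trizol RNA went into an Illumina TruSeq RNA library kit. The authors deposited FPKM values per gene with gene positions and lengths, per the file headers. Bowtie 0.12.2 and 2 builds, GRCh38 and mm8, are named without roles in the submitters' processing notes, which do not name a read counter. Gene IDs were found in GENCODE release 29 (GRCh38) for 96.2% of rows, 92.8% of these with the same start or end, so positions are given as GRCh38. FPKM times gene length was a whole multiple of 1 step for 100% of values above 0 in each library (tolerance 0.01), which gave the reads. Intervals from reads cover counting error only.

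Values were taken as log2(FPKM + 1), which understates changes of low genes, and genes averaging 0.5 FPKM or more were tested with limma 3.58.1 in R 4.3.3 (empirical Bayes with trend, Benjamini-Hochberg, threshold 0.05), tested first on simulated data. Ratios of paralogs were compared by exact permutation of libraries. The longest GENCODE transcript gave GC content for 98.4% of tested genes, all 10 members included. Natural splines (5 degrees of freedom) of GC content and of log2 length were fitted to each library's deviations and subtracted, which also removes any change tied to GC content by biology. Alternatives were other pseudocounts, filters, scalings, limma's voom on the reads, the replicate number as a block and single libraries left out. Members and lists were chosen with earlier results of these data known. Named list genes are up to 4 past the threshold with the largest change. TMEM41A, TMEM64, ATG9B and the pseudogenes were named for their relation to members after their values were seen. BLTP symbols were matched to older names through gene IDs.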

Additional observations from a re-analysis of the deposited data

How the results depend on the processing

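Correlations of same-numbered deviations were 0.017, 0.012 and 0.011, and those of differently numbered ones lay between -0.027 and 0.015. These show no deviation shared by replicate number, but not whether the experiment was paired by that number. With the number as a block VMP1 and TMEM41B passed and ATG2B did not (0.275, adjusted p = 0.0552), and 4396 genes were called over the table. ATG2B was also lost with no filter on low values (0.275, adjusted p = 0.0830). ATG2A passed when only protein-coding genes, or only genes averaging 5 FPKM or more, were tested (-0.169 in each), which made 1 member lower, and with voom on library totals, chosen after seeing the data (-0.192), where AMBRA1 passed too (-0.192), which made 2. The planned voom fit with TMM factors is not reported, since count tools are not applied to a table of FPKM. With GC content and length fitted out, without and with the block, 1585 and 788 genes were called of 5183, 1 and 1 members were higher, and 5 and 1 list genes were higher and 5 and 4 lower. The log2 fold changes, the same in both fits, were 0.108 for ATG2A, 0.157 for ATG2B, 0.213 for ATG9A, 0.118 for VMP1 and 0.159 for TMEM41B, and with the block the adjusted p was 0.229, 0.250, 0.0472, 0.133 and 0.142. ATG9A was at 0.011 with quantile normalization. With corrected library means set equal, a setting chosen after seeing the data like the omissions from the corrected fit, WDR45 passed too (0.243, adjusted p = 0.0414). Leaving out single libraries gave 3276 (without NC replicate 1) to 4779 genes called, 2 to 3 members higher and 0 to 1 lower, and 18 to 27 list genes higher and 9 to 14 lower. The log2 fold changes then ranged from -0.206 to -0.140 for ATG2A, 0.202 to 0.316 for ATG2B, -0.069 to 0.024 for ATG9A and -0.228 to -0.128 for AMBRA1. Group differences in log2 ratio ranged from -0.165 to 0.040 for WDR45B to WDR45 and from -0.018 to 0.096 for TMEM41B to VMP1. Pseudocounts, TPM and median centring changed no call of a member. Of the 22 list genes and 3 genes of like pattern named, 5 lost their call with no filter, 21 after the GC and length correction, and none reversed. FPKM of WIPI1 rest on the fewest reads of the 10, which limits what can be seen there.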
